A study of Mus musculus with 6 samples.

Results

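Genes of the tumor necrosis factor (TNF) superfamily were followed in mammary tumors of mice given DMHCA, a steroidal agonist of the liver X receptor (LXR). A gene was taken when its symbol was Tnf, Fas or Fasl, or began with Tnfsf (ligands) or Tnfrsf (receptors) and a number, with the B cell receptors Tnfrsf13b, Tnfrsf13c and Tnfrsf17 left out. This rule uses no measured value and found 32 of the 55385 genes in the tables, which were 13 ligands, 18 receptors and 1 antisense RNA, Tnfsf13os, whose symbol matches although it encodes no ligand. Family genes with other kinds of symbol, such as Ltb, Cd27 and Cd40, are not among the 32 and are described separately as a list.

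The TNF superfamily pairs trimeric ligands, mostly anchored in the cell membrane, with receptors that signal through adaptor proteins. Receptors with a death domain can recruit caspase-8 and trigger apoptosis, while most of the others activate the transcription factor NF-kB through TRAF adaptors, and decoy receptors bind a ligand without passing on its full signal. In the mammary gland RANK ligand and its receptor RANK drive the growth of the epithelium, and many of the other pairs carry signals between T cells, B cells, macrophages and dendritic cells.

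All mice were of the NeuT/ATTAC strain, which carries an activated rat ErbB2 gene under the MMTV promoter and a caspase-8 fusion protein under the FABP4 promoter, so that the dimerizer AP20187 kills part of the mammary fat and fibrous tissue takes its place. The DMHCA group was female, received AP20187 by injection at 0.4 mg/kg 3 times a week from 6 weeks of age, and from 8 weeks of age ate a diet with 0.05% DMHCA, a dose of about 100 mg/kg. The control label names AP20187 and vehicle and leaves unclear whether the controls received both, although the study's text describes tumors from AP20187-treated mice in both groups, and the tissue label names mammary gland fibrosis where that text names tumors. Each group had 3 libraries of bulk RNA. Luminal epithelial markers summed to 245900 to 322700 normalized counts in the control libraries and 343500 to 361100 in the DMHCA libraries, abundant in all 6 and higher in each DMHCA library than in any control library.

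DMHCA libraries 1 and 3 were near identical, with a biological coefficient of variation of 0.0327 against 0.376 to 0.579 for the other 5 pairs within a group, so they were counted as 1 sample and the tests compared 3 control samples with 2 DMHCA samples. Expected counts summed to between 46358654 and 63420620 per library. Control library 3 stood apart in its immune and fat markers. Its B cell markers summed to 20910 normalized counts where the other 5 libraries held 66.9 to 2466, and its adipocyte markers to 33990 where the others held 1923 to 7269. Many of the results that rest on this library are given with and without it. In bulk RNA, fewer cells of a type and less RNA per cell cannot be told apart.

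Values below are listed in the order of libraries 1, 2 and 3 of each group. TPM, a measure of abundance that corrects for transcript length and library size, served to compare levels between genes, and normalized counts served to compare 1 gene between libraries. Tnfrsf12a, which encodes Fn14, the receptor of the cytokine TWEAK, had the highest level of the family in all 6 libraries, at 198, 264 and 131 TPM in the control libraries and 105, 183 and 109 TPM in the DMHCA libraries. Tnfrsf1a, the widely expressed death domain receptor of TNF, was next in every library at 115, 82.5 and 55.5 TPM in control and 91.5, 167 and 90.6 TPM in DMHCA libraries. The groups overlapped for both of these genes. Tnfsf13, the gene of the B cell factor APRIL, was the ligand with the highest level in every library, at 42.1, 42.1 and 27.4 TPM in control and 47.0, 59.8 and 45.9 TPM in DMHCA tumors. At the other end, Tnfsf4 (OX40 ligand) stayed at 0.02 to 0.06 TPM and Tnfrsf8 (CD30) at 0.02 to 0.15 TPM. These were the 2 members that did not pass the filter on low counts, with at most 4 and 19 counts in a library, which left 30 members to test.

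**Figure D1:**
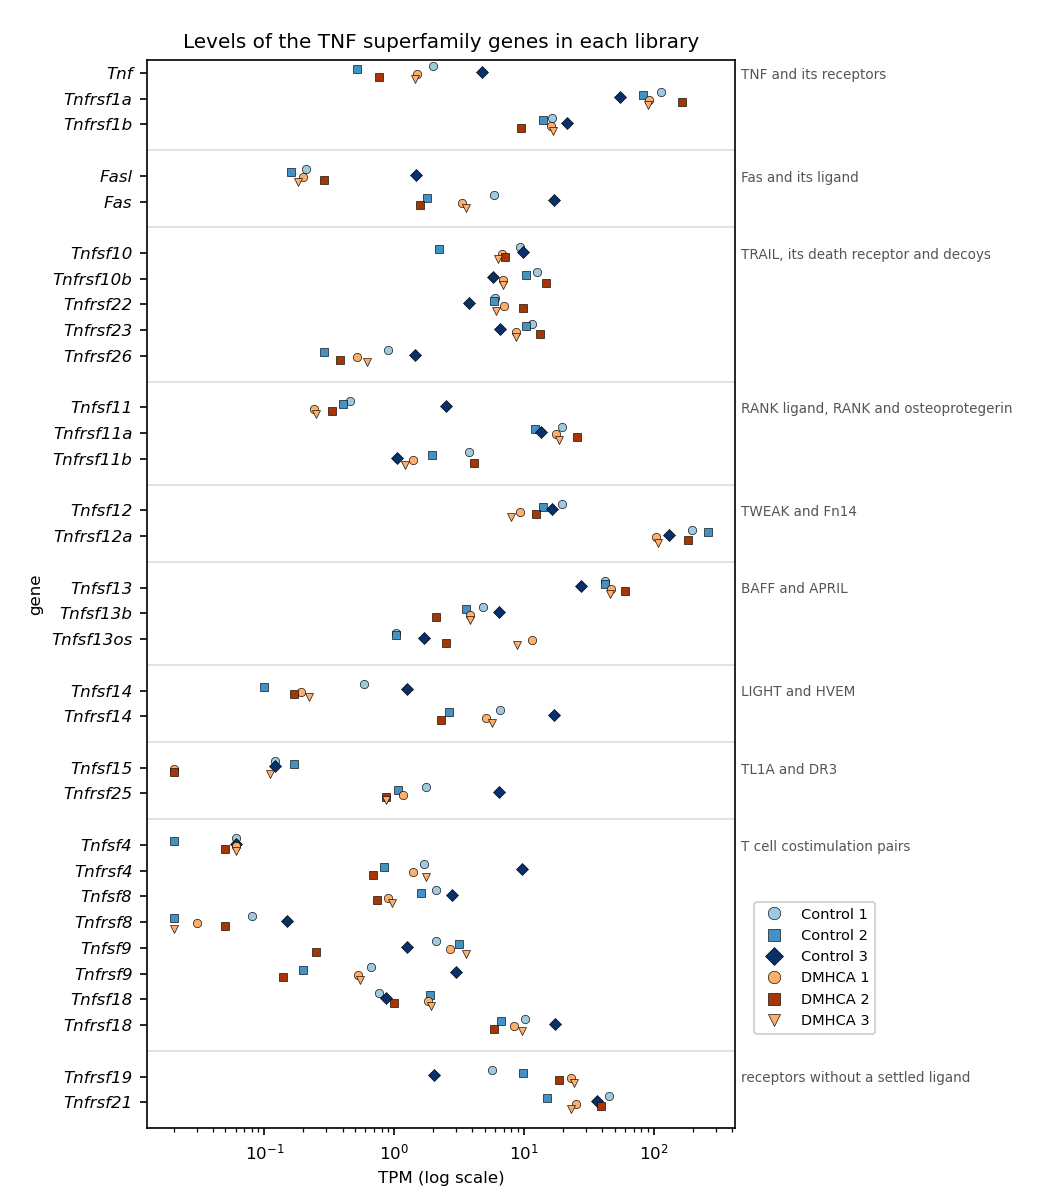
Level of each of the 32 genes in each library, in TPM on a log axis, grouped by ligand and receptor axis. Blue symbols are the 3 control libraries and orange or brown symbols the 3 DMHCA libraries, with the near-identical DMHCA libraries 1 and 3 in the same colour. Tnfrsf12a and Tnfrsf1a lie farthest to the right, and control library 3 (dark diamonds) lies to the right of the other libraries for Fas, Fasl, Tnfsf11, Tnfrsf4, Tnfrsf9, Tnfrsf14 and Tnfrsf25.

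The first question was whether DMHCA shifted the family as a whole. By edgeR's quasi-likelihood test with Benjamini-Hochberg adjustment, 0 of the 30 members had an adjusted p under 0.05, like 0 of all 19427 genes tested (0.0%), and adjusted p values started at 0.644. At an unadjusted p under 0.05 there were 1478 genes (7.61%), while DESeq2 gave 244 genes with an adjusted p under 0.05 on the 5 samples (1.22% of its tested genes) and 846 on the 6 libraries (3.98%). Among the members, 2 passed this unadjusted level on the lower side, Tnfsf8 and Tnfsf12, as 4.08% of all genes did, and 2 on the higher side, Tnfrsf19 and Tnfsf13os, as 3.53% of all genes did. The control samples all lay above the DMHCA samples for 6 members, which were Tnfsf8, Tnfsf12, Tnfsf11, Tnfsf15, Tnfsf13b and Tnfrsf25, against 12.2% of all genes. The reverse held for 2 members, Tnfrsf19 and Tnfsf13os, against 13.8% of all genes.

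The fitted log2 fold change was below 0 for 22 of the 30 members, where 52.0% of all genes had a lower fitted value, and above 0 for 8. On TPM with limma the split was 18 lower and 12 higher, on a scale whose median over all genes was 0.11 with a pseudocount of 1. The median member had a log2 fold change of -0.73, against -0.03 for all genes. For the 12 ligands tested the median was -1.06, or -0.77 without control library 3. For the 17 receptors it was -0.58, or -0.3 without that library. Fitted values were at least 2-fold lower with DMHCA for 12 members, against 13.2% of all genes, and at least 2-fold higher for 2, against 5.15%. Of the 12, all but Tnfsf15 had their highest value in control library 3. That library held the highest value for 15 of the 30 members, against 27.8% of all genes. Without it the median over the 30 members was -0.31, and 22 members still had a lower fitted value, against 49.2% of all genes. At least 2-fold lower values were left for 2 members, Tnfsf8 and Tnfsf15, against 7.54% of all genes, and at least 2-fold higher ones for 2, against 5.99%. Without that library 1 member was lower at an unadjusted p under 0.05 (all genes, 3.27%) and 2 were higher (2.16%), and the groups did not overlap for 7 lower members (16.7%) and 2 higher ones (18.1%).

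**Figure D2:**
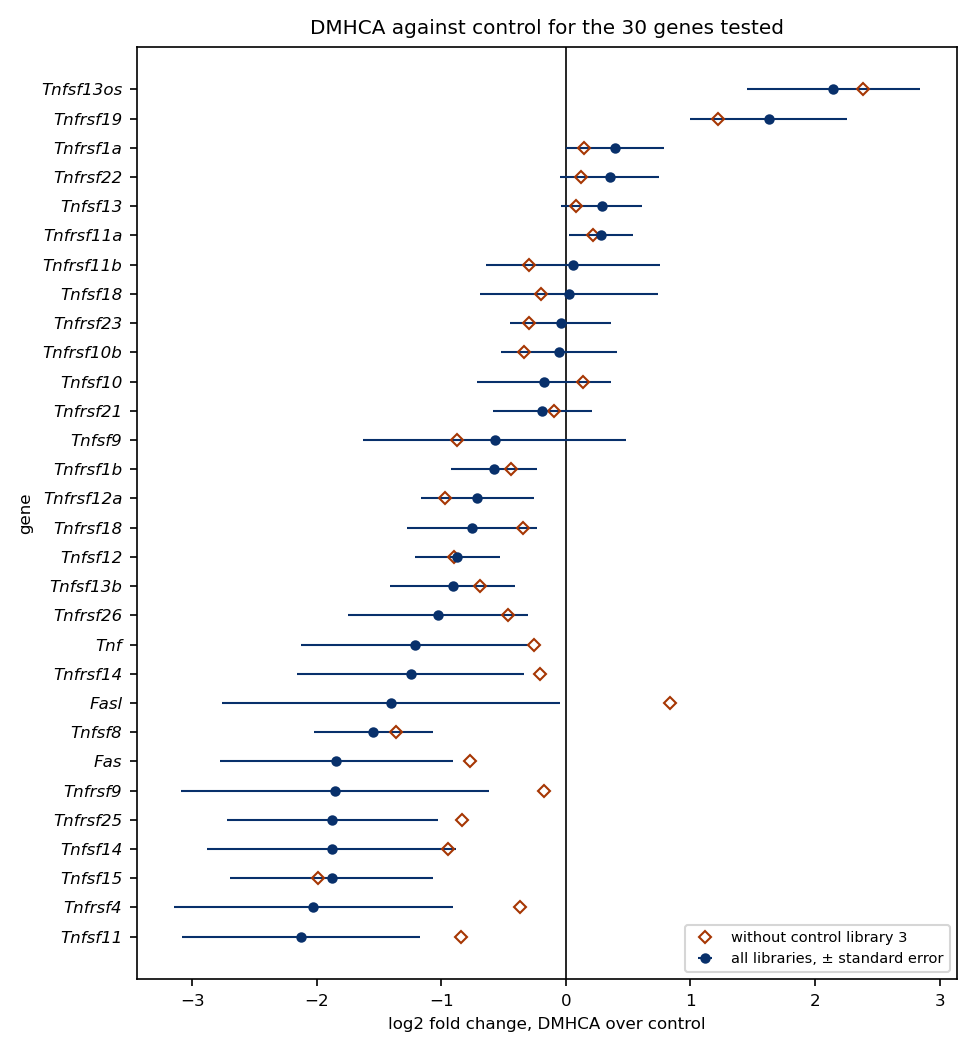
Fitted log2 fold change of DMHCA over control for the 30 genes tested, ordered by size. Filled points with bars are the values with all libraries ± their standard error, and open diamonds are the values without control library 3. Points to the left of 0 are lower with DMHCA, and the diamonds of Fas, Fasl, Tnfrsf4, Tnfrsf9, Tnfsf11 and Tnfrsf25 lie well to the right of their filled points, while those of Tnfsf8, Tnfsf12 and Tnfsf15 stay close.

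Tnfsf8 had the smallest p of the family. It encodes CD30 ligand, a membrane protein of activated T cells and myeloid cells. Tnfsf8 (ENSMUSG00000028362, chr4:63831308-63861347, minus strand, GRCm38) held 292, 303 and 424 normalized counts in the control libraries and 127, 95.7 and 139.7 in the DMHCA libraries. The lowest control library held more than the highest DMHCA library, and control library 3 was the highest. Means were 339.5 ± 72.9 in control (SD, n = 3) and 115 ± 26.8 in DMHCA tumors (SD, n = 2), and edgeR gave a log2 fold change of -1.55 (SE 0.478, unadjusted p = 0.0156, adjusted p = 0.644). It was -1.36 without control library 3 and -1.65 to -1.29 over all libraries left out in turn, with an unadjusted p by edgeR of 0.0130 to 0.0878, the highest p being without DMHCA library 2. DESeq2 called Tnfsf8 on the 5 samples with an adjusted p of 0.0342 and on the 6 libraries with 0.00303, while over all 15 alternatives the adjusted p ran from 0.00303 to 0.959. Its receptor gene Tnfrsf8 was too low to test, at 9.63, 3.83 and 20.7 normalized counts in control and 3.89, 5.98 and 3.11 in DMHCA libraries.

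Tnfrsf19 was the receptor that stood higher with DMHCA. It encodes TROY, a receptor of epithelial and neural tissue whose ligand is not settled. Tnfrsf19 (ENSMUSG00000060548, chr14:60963875-61046490, minus strand) held 708, 1589 and 306 normalized counts in the control libraries and 3066, 2201 and 3128 in the DMHCA libraries. The control libraries differed widely among themselves, with library 3 the lowest and library 2 the highest, and all lay below the lowest DMHCA library. The summed luminal epithelial markers had the same order among the controls, at 306500, 322700 and 245900 normalized counts. They were above the controls in every DMHCA library, at 359300, 343500 and 361100. Without Erbb2, 1 of the 7 markers, the sum of DMHCA library 2 lay below that of control library 2. The sum did not describe each of the 7 markers, since Epcam, Cdh1 and Krt19 were lower in fitted value with log2 fold changes of -0.12, -0.09 and -4.01, and the median was 0.16. Of the 7, 0 had an unadjusted p under 0.05 by edgeR and 1 (Krt8, higher) had groups that did not overlap, and the part of epithelial content in the values of Tnfrsf19 was not tested. Means were 868 ± 656 in control (SD, n = 3) and 2649 ± 633 in DMHCA tumors (SD, n = 2), and the log2 fold change was 1.63 (SE 0.630, edgeR unadjusted p = 0.0382, adjusted p = 0.644). Of the values with 1 library left out, the lowest was 1.22, without control library 3, and the unadjusted p by edgeR ran from 0.00371 without control library 2 to 0.0966 without control library 1. In TPM Tnfrsf19 stood at 5.64, 9.92 and 2.04 in control and 23.0, 18.6 and 24.1 in DMHCA libraries, which put it among the more abundant receptors of the DMHCA tumors.

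**Figure D3:**
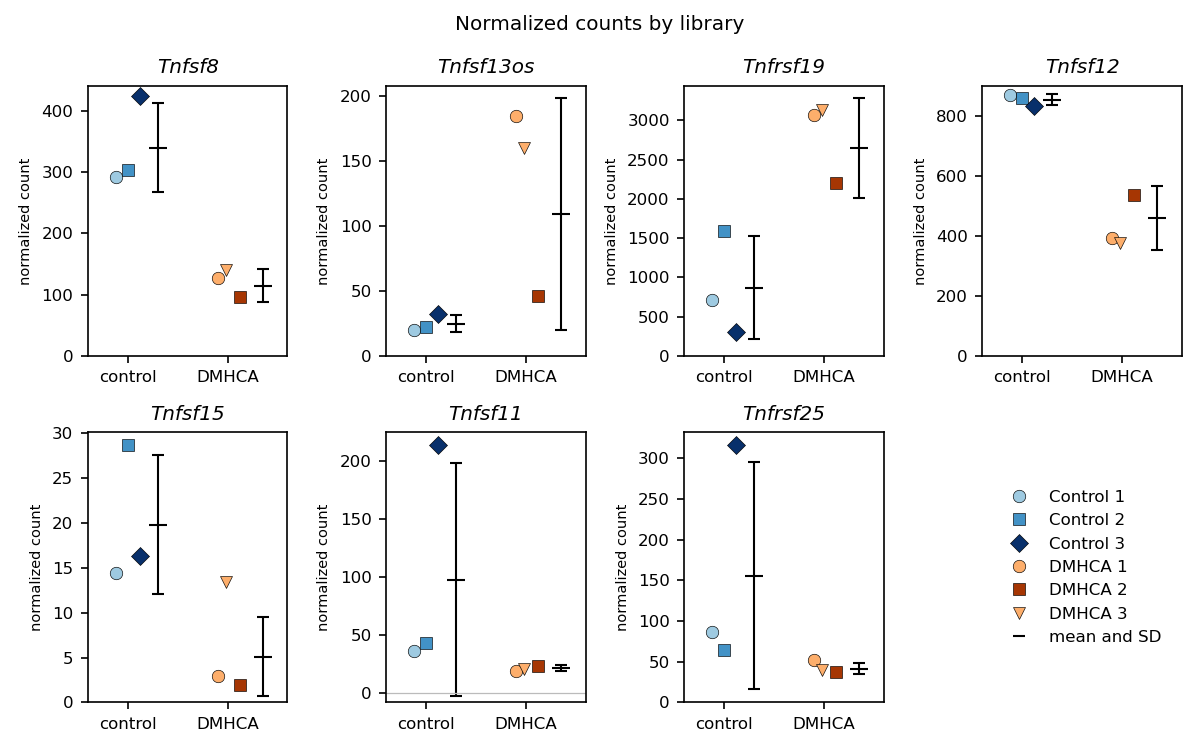
Normalized counts by library for the 7 genes with an unadjusted p under 0.05, or with groups that did not overlap and a change of at least 2-fold. Points are libraries, and the black bars are the mean ± SD over 3 control samples or 2 DMHCA samples, with DMHCA libraries 1 and 3 averaged as 1 sample. The groups are separate in all 7 plots, and for Tnfsf11 and Tnfrsf25 most of the height of the control mean comes from control library 3.

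NF-kB is the transcription factor that most of these receptors activate, and it also acts on genes of the family such as Tnf. The 250 bases upstream of the RefSeq transcript starts (GRCm38.p6) are shown for Tnfsf8 and Tnfrsf19, the ligand and the receptor with the smallest p, for Tnfsf11, a ligand with separate groups, and for Tnf itself. Capitals mark matches to a kB pattern, GGG and CC with any 5 bases between them, on either strand.
Tnfsf8, chr4:63861285-63861534, minus strand: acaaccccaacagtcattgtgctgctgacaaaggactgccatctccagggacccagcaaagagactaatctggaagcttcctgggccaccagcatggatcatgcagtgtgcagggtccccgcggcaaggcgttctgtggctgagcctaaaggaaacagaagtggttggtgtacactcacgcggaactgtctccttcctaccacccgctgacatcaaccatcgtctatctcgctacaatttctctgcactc
Tnfrsf19, chr14:61046856-61047105, minus strand: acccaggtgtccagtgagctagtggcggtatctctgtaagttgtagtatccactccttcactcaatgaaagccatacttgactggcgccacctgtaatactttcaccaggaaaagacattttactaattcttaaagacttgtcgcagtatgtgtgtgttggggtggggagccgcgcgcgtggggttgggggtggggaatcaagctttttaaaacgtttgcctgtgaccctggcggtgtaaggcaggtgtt
Tnfsf11, chr14:78308044-78308293, minus strand: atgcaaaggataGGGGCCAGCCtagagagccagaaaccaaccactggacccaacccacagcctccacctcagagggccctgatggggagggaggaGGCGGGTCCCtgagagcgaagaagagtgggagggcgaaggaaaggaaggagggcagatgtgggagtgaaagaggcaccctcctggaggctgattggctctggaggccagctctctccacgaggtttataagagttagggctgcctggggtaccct
Tnf, chr17:35202008-35202257, minus strand: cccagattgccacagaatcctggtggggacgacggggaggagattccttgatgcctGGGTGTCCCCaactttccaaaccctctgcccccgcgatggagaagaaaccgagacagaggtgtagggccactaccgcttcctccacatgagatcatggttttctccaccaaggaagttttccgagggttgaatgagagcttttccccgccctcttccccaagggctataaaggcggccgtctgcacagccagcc
Tnf held 1 match, starting at -194 from the transcript start, and Tnfsf11 held 2, at -238 and -155. Tnfsf8 held none, nor did Tnfrsf19 in either of its 2 windows, of which 1 is shown. Upstream sequences were matched for 24 of the 32 members, with 28 windows in all. The pattern was in 16 of the 28, from 15 genes, where 45.8% of all 32851 windows of this length held it. A direct repeat of the LXR type, AGGTCA and AGGTCA with any 4 bases between them on either strand, was found in 0 of the 28 windows and in 0.0152% of all windows. Such matches describe letters and are no evidence of binding.

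TWEAK and APRIL are encoded side by side. Tnfsf12 (ENSMUSG00000097328, chr11:69686250-69695849, minus strand) encodes TWEAK, the ligand of Fn14, which acts on fibroblasts, endothelium and epithelium, and Tnfsf13 (ENSMUSG00000089669, chr11:69682846-69685784, minus strand) encodes APRIL. The read-through gene Tnfsfm13 joins exons of both, and the antisense RNA Tnfsf13os (ENSMUSG00000085890, chr11:69682138-69691141, plus strand) runs over the same stretch on the opposite strand. Tnfsf12 held 872, 862 and 835 normalized counts in the control libraries and 394, 537 and 376 in the DMHCA libraries. The control libraries were nearly equal, and each held more than any DMHCA library. Means were 856 ± 19.0 (SD, n = 3) and 461 ± 108 (SD, n = 2), a log2 fold change of -0.87 (SE 0.341, edgeR unadjusted p = 0.0396, adjusted p = 0.644), with -1.10 to -0.87 over the libraries left out in turn. The unadjusted p by edgeR exceeded 0.05 without any 1 of the control libraries or DMHCA library 2, at 0.0557 to 0.105. DESeq2 gave adjusted p values of 0.298 on the 5 samples and 0.0471 on the 6 libraries, and they ran up to 0.959 over the 15 alternatives.

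Tnfsf13os stood at 20.2, 22.0 and 32.7 normalized counts in control and 185, 45.8 and 160.4 in DMHCA libraries. Its DMHCA library 2 lay much nearer to the controls than the other pair did, and still above them. Means were 25.0 ± 6.73 in control (SD, n = 3) and 109 ± 89.6 in DMHCA tumors (SD, n = 2). The log2 fold change was 2.15 (SE 0.694, edgeR unadjusted p = 0.0189, adjusted p = 0.644), with 2.02 to 2.84 and an unadjusted p of 0.00576 to 0.0692 over the libraries left out in turn, the highest p being without control library 1. DESeq2 gave adjusted p values of 0.113 on the 5 samples and 0.00481 on the 6 libraries, and they ran up to 0.959 over the 15 alternatives. Tnfsf13 itself held 1983, 2707 and 1414 normalized counts in control and 2281, 2632 and 2243 in DMHCA libraries, with overlapping groups and a log2 fold change of 0.29 (SE 0.327), and Tnfsfm13 held 840.1, 895 and 656 in control and 623, 731 and 599 in DMHCA libraries, a log2 fold change of -0.23 (SE 0.33). The ratio of Tnfsf13 to Tnfsf12, in TPM, was 2.16, 3.01 and 1.66 in the control libraries and 5.07, 4.80 and 5.78 in the DMHCA libraries, and its groups did not overlap.

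These 4 genes share sequence, which bears on how reads were divided between them. Of the distinct 50-base stretches of their transcripts, 46.8% of those of Tnfsf12 and 57.3% of those of Tnfsf13 also occur in Tnfsfm13, and 12.2% of those of Tnfsf13os occur in the opposite strand of Tnfsf13 or Tnfsfm13. Whether strand was used in the counting is not given in the sources used here, so reads of Tnfsf13os and of the genes across from it cannot be told apart with certainty. Tnfsf12 and Tnfsfm13 together held 1712, 1757 and 1492 normalized counts in control and 1017, 1269 and 975 in DMHCA libraries. This sum was also lower in every DMHCA library, but it still depends on how reads were divided between Tnfsfm13 and Tnfsf13. The sum of Tnfsf12, Tnfsfm13, Tnfsf13 and Tnfsf13os held 3715, 4486 and 2938 normalized counts in control and 3483, 3946 and 3379 in DMHCA libraries, and its groups overlapped. Tnfrsf12a, the receptor gene of TWEAK, held 5988, 11022 and 4418 normalized counts in control and 3293, 5234 and 3432 in DMHCA libraries, with overlapping groups and a log2 fold change of -0.71 (SE 0.454).

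**Figure D4:**
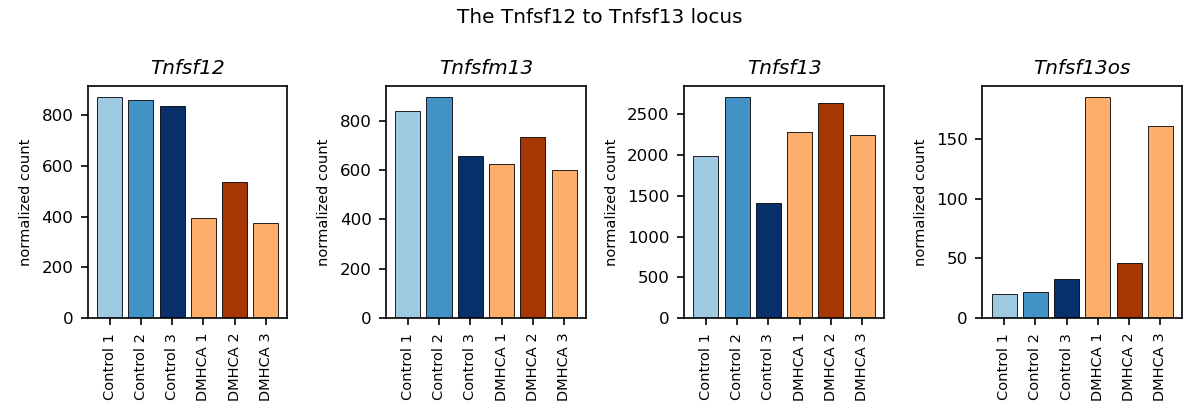
Normalized counts in each library for Tnfsf12, the read-through gene Tnfsfm13, Tnfsf13 and the antisense RNA Tnfsf13os, each on its own linear axis from 0. Bars are single libraries, blue for control and orange or brown for DMHCA, with DMHCA libraries 1 and 3 in the same colour. Tnfsf12 is lower and Tnfsf13os higher in all 3 DMHCA libraries, and Tnfsf13 overlaps between the groups.

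The other B cell factor, BAFF, is encoded by Tnfsf13b (ENSMUSG00000031497, chr8:10006467-10039072, plus strand). It held 257, 257 and 386 normalized counts in control and 203, 114 and 201 in DMHCA libraries. The groups did not overlap, and the log2 fold change was -0.91 (SE 0.505), or -0.69 without control library 3. In TPM APRIL exceeded BAFF in every library, with a ratio of 8.75, 11.8 and 4.25 in the control libraries and 12.3, 28.4 and 12.0 in the DMHCA libraries.

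RANK ligand, the product of Tnfsf11, activates RANK (Tnfrsf11a) on mammary epithelium and osteoclast precursors, and osteoprotegerin (Tnfrsf11b) is the soluble decoy that captures it. Tnfsf11 (ENSMUSG00000022015, chr14:78277445-78308043, minus strand) held 36.6, 43.0 and 213 normalized counts in control and 19.5, 23.9 and 20.7 in DMHCA libraries. Control library 3 was far above the other controls, and those still lay above the DMHCA libraries. Means were 97.7 ± 100.3 in control (SD, n = 3) and 22.0 ± 2.72 in DMHCA tumors (SD, n = 2). The log2 fold change was -2.13 (SE 0.958, edgeR unadjusted p = 0.0644, adjusted p = 0.644) and -0.84 without control library 3, with -2.54 to -0.84 over the libraries left out in turn. RANK itself was abundant and even, with 2871, 2258 and 2242 normalized counts in control and 2594, 3271 and 2668 in DMHCA libraries, a log2 fold change of 0.28 (SE 0.256). Tnfrsf11b held 379.6, 268 and 116 normalized counts in control and 145, 387 and 126 in DMHCA libraries, and its DMHCA library 2 was as high as the highest control while the other pair was near the lowest. The ratio of receptor to ligand, Tnfrsf11a to Tnfsf11 in TPM, was 42.6, 30.5 and 5.41 in the control libraries and 73.1, 77.1 and 74.7 in the DMHCA libraries. It was higher in every DMHCA library than in any control, and control library 3 was the lowest. The ratio of decoy to ligand, Tnfrsf11b to Tnfsf11, was 8.15, 4.88 and 0.426 in the control libraries and 5.79, 12.5 and 4.84 in the DMHCA libraries, and its groups overlapped.

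Tnf, the cytokine that names the family, held 111, 39.2 and 291 normalized counts in control and 85.6, 39.9 and 83.8 in DMHCA libraries. The groups overlapped, since control library 2 was as low as DMHCA library 2, and the log2 fold change of -1.21 (SE 0.910) was -0.25 without control library 3. Its receptors are Tnfrsf1a, which carries a death domain, and Tnfrsf1b, found mostly on immune and endothelial cells. Tnfrsf1a held 8578, 8415 and 4532 normalized counts in control and 7017, 11572 and 6946 in DMHCA libraries, a log2 fold change of 0.39 (SE 0.393), and Tnfrsf1b held 2302, 2619 and 3227 in control and 2333, 1234 and 2399 in DMHCA libraries, a log2 fold change of -0.58 (SE 0.347). Both receptors overlapped between groups. The ratio of the first to the second in TPM was 6.96, 5.87 and 2.59 in the control libraries and 5.61, 17.5 and 5.44 in the DMHCA libraries, highest in DMHCA library 2 and lowest in control library 3.

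Fas, the death receptor of Fas ligand, held 276, 113 and 845 normalized counts in control and 151, 66.8 and 169 in DMHCA libraries. Control library 3 was the highest, control library 2 lay within the DMHCA range, and the log2 fold change of -1.84 (SE 0.936, edgeR unadjusted p = 0.0926) was -0.77 without control library 3. Fasl, the ligand made by cytotoxic T cells and natural killer cells, held 14.5, 2.87 and 108 in control and 13.6, 17.9 and 12.4 in DMHCA libraries. Control library 3 was far above all others, and the log2 fold change turned from -1.40 (SE 1.36) to 0.83 without it.

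TRAIL (Tnfsf10) kills tumor cells through its death receptor Tnfrsf10b, and mice also have the decoy receptors Tnfrsf22 and Tnfrsf23. Tnfsf10 held 1698, 544 and 1969 normalized counts in control and 1274, 1217 and 1196 in DMHCA libraries, with the DMHCA libraries close together inside the control range. Its log2 fold change was -0.18 (SE 0.535) and changed sign on TPM. Tnfrsf10b held 1423, 1566 and 714 in control and 784, 1559 and 793 in DMHCA libraries, and its values split DMHCA library 2 from the other pair more than they split the groups. Tnfrsf22 had a log2 fold change of 0.35 (SE 0.397) at 678, 753 and 399.6 normalized counts in control and 723, 853 and 643 in DMHCA libraries, and Tnfrsf23 one of -0.04 (SE 0.404) at 1042, 1377 and 638 in control and 838, 1127 and 814 in DMHCA libraries, which changed sign on TPM. These decoys are neighbours on chromosome 7, and 27.4% and 19.3% of their 50-base stretches occur in other genes, mostly in each other, so the division of reads between them is uncertain. The related receptor gene Tnfrsf26, next to them, held 101, 44.0 and 177 normalized counts in control and 59.3, 38.9 and 71.4 in DMHCA libraries. Its groups overlapped, and the log2 fold change of -1.02 (SE 0.725) was -0.47 without control library 3.

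TL1A, the product of Tnfsf15, costimulates T cells through the receptor DR3 (Tnfrsf25). Tnfsf15 lies near Tnfsf8 on chromosome 4 (ENSMUSG00000050395, chr4:63727084-63745113, minus strand) and was scarce, with 14.5, 28.7 and 16.3 normalized counts in control and 2.92, 1.99 and 13.5 in DMHCA libraries. The groups did not overlap, but DMHCA library 3 came close to the lowest control, while its near-identical partner did not, so counting error is large at this depth. Means were 19.8 ± 7.73 in control (SD, n = 3) and 5.09 ± 4.38 in DMHCA tumors (SD, n = 2). The log2 fold change was -1.88 (SE 0.812, edgeR unadjusted p = 0.0560, adjusted p = 0.644), with -2.95 to -1.25 over the libraries left out in turn. Tnfrsf25 (ENSMUSG00000024793, chr4:152115934-152120119, plus strand) held 86.7, 64.1 and 317 normalized counts in control and 52.5, 36.9 and 40.4 in DMHCA libraries. Its groups did not overlap either, with control library 3 far above the rest. Means were 156 ± 139.8 in control (SD, n = 3) and 41.7 ± 6.77 in DMHCA tumors (SD, n = 2). The log2 fold change of -1.88 (SE 0.847, edgeR unadjusted p = 0.0650, adjusted p = 0.644) was -0.84 without that library and -2.25 to -0.84 over the libraries left out in turn.

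LIGHT (Tnfsf14) binds the receptor HVEM (Tnfrsf14) on lymphocytes and myeloid cells. Tnfsf14 held 37.6, 8.61 and 87.1 normalized counts in control and 12.6, 9.97 and 14.5 in DMHCA libraries, and Tnfrsf14 held 168, 92.8 and 543 in control and 170.2, 54.8 and 166 in DMHCA libraries. In both genes control library 3 was the highest and control library 2 lay below or inside the DMHCA range. The log2 fold changes of -1.88 (SE 0.999) and -1.25 (SE 0.911) were -0.95 and -0.21 without control library 3.

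The remaining pairs give T cells a second signal. OX40 (Tnfrsf4) held 46.2, 35.4 and 306 normalized counts in control and 40.8, 18.9 and 45.5 in DMHCA libraries, the receptor 4-1BB (Tnfrsf9) held 35.6, 12.4 and 184 in control and 37.9, 8.97 and 26.9 in DMHCA libraries, and GITR (Tnfrsf18) held 372, 342 and 714 in control and 327, 203 and 382 in DMHCA libraries. All 3 receptor genes were highest in control library 3, overlapped between groups, and had log2 fold changes of -2.03 (SE 1.12), -1.85 (SE 1.24) and -0.76 (SE 0.523) that were -0.37, -0.18 and -0.35 without it. Tnfsf9, the ligand gene of 4-1BB, held 89.6, 183 and 58.8 normalized counts in control and 118, 9.97 and 156 in DMHCA libraries and was lowest by far in DMHCA library 2, and its log2 fold change of -0.57 (SE 1.05) turned to 0.35 without that library. Tnfsf18, the ligand gene of GITR, held 55.9, 185 and 68.6 in control and 135, 66.8 and 145 in DMHCA libraries, a log2 fold change of 0.02 (SE 0.712). The OX40 ligand gene Tnfsf4 stood at 3.85, 1.91 and 4.35 normalized counts in control and 3.89, 2.99 and 4.14 in DMHCA libraries, too few to compare. Finally, Tnfrsf21 (DR6), a death domain receptor without a settled ligand, held 5813, 2672 and 5173 in control and 3354, 4649 and 3092 in DMHCA libraries, with a log2 fold change of -0.19 (SE 0.395) that changed sign on TPM.

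Markers of other cell types moved with the members that were highest in control library 3. T and NK cell markers summed to 1632, 501 and 14080 normalized counts in control and 829, 463 and 800.1 in DMHCA libraries. All 11 were lower in fitted value, 2 at an unadjusted p under 0.05 by edgeR, and 1 had groups that did not overlap. B cell markers summed to 2466, 66.9 and 20910 in control and 134, 88.7 and 107 in DMHCA libraries. All 8 were lower at an unadjusted p under 0.05 by edgeR, where 4.08% of all genes were. Only 1 of the 8 had groups that did not overlap, where 12.2% of all genes were lower in that way. Adipocyte markers summed to 7269, 5173 and 33990 in control and 2115, 1923 and 2067 in DMHCA libraries. Their groups did not overlap in 6 of 6 genes, and all 6 were lower at an unadjusted p under 0.05 by edgeR. Macrophage and monocyte markers summed to 37270, 33340 and 81160 in control and 34810, 26800 and 34870 in DMHCA libraries. Of these, 5 of 8 were lower in fitted value and 0 had an unadjusted p under 0.05 in either direction by edgeR. For 2 of the 8, both lower, the groups did not overlap. Lyz2 alone made up 63600 of the sum in control library 3, and the other 7 markers together held 13050, 12460 and 17560 in control and 15240, 12500 and 15480 in DMHCA libraries. Without control library 3 the log2 fold changes of Tnfsf8 and Tnfsf12 were -1.36 and -0.90. The median over all markers of the list was then -3.51 for adipocytes, -0.88 for T and NK cells, -0.53 for dendritic cells and 0.09 for macrophages and monocytes. In 2 lists some markers no longer passed the filter on low counts, and the median was -3.93 over 4 of the 8 B cell markers (-6.64 for those 4 with all libraries) and -2.31 over 4 of the 6 lymph node stroma and follicle markers (-5.54 for those 4 with all libraries). Of the 6 dendritic cell markers, Itgax and Siglech had an unadjusted p under 0.05 by edgeR, with log2 fold changes of -0.68 and -2.96, or -0.67 and -1.57 without that library, while Zbtb46 and Xcr1 were then at 0.21 and 0.35. The part of these cells in the members' values was not tested.

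Family members with other kinds of symbol were read as lists. Of the ligands Lta, Ltb, Cd40lg, Cd70 and Eda, 4 were tested, all 4 were lower in fitted value, and 1 had an unadjusted p under 0.05 by edgeR. That gene, Ltb, encodes lymphotoxin beta of lymphoid tissue and held 778, 84.2 and 4670 normalized counts in control and 156, 78.7 and 137 in DMHCA libraries, a log2 fold change of -4.01 (SE 1.57) that was -1.93 without control library 3. The median of the 4 was -3.34. Without that library Cd40lg no longer passed the filter on low counts, and the median of the other 3 went from -2.68 to -1.03. Among the 7 receptors Ltbr, Cd40, Cd27, Ngfr, Edar, Eda2r and Relt, 4 were lower in fitted value with a median of -0.73, or -0.02 without control library 3. Cd27, a costimulatory receptor of lymphocytes, was the 1 gene with an unadjusted p under 0.05, at 144, 141 and 858 normalized counts in control and 64.2, 40.9 and 27.9 in DMHCA libraries, and its groups did not overlap (log2 fold change -3.10, SE 1.01, and -1.69 without control library 3).

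Downstream of the receptors, the 22 adaptors and kinases, from Tradd and Fadd through the Traf genes to the IkB kinases and the linear ubiquitin ligase, had a median log2 fold change of 0.06, with 10 lower in fitted value and 0 at an unadjusted p under 0.05 by edgeR. For the 12 NF-kB subunits and brakes, such as Rela, Nfkb1, Nfkbia and Tnfaip3, 9 were lower with a median of -0.32, or -0.06 without control library 3, and 0 had an unadjusted p under 0.05 by edgeR. Of 19 NF-kB target genes, 18 were tested and 17 were lower, with a median of -0.54, where 52.0% of all genes tested were lower. This list shares genes with those before it and is no separate reading of them. Nfkbia, Tnfaip3, Relb and Nfkb2 are also among the subunits and brakes, and Birc3 and Traf1 among the adaptors and kinases. Without control library 3, 11 of the 17 targets that could be tested were lower, with a median of -0.09, where 49.2% of all genes were lower. At an unadjusted p under 0.05 there were 2 of the 18 targets, both lower, where 4.08% of all genes were. Il1b, the gene of interleukin-1 beta, held 696, 1510 and 539 normalized counts in control and 338, 384 and 374 in DMHCA libraries, a log2 fold change of -1.29 (SE 0.526) that was -1.56 without control library 3. Ccl20, a chemokine gene, held 12.5, 5.74 and 13.1 in control and 2.92, 0 and 2.07 in DMHCA libraries, counts too low to size the difference well. No gene of these lists had an adjusted p under 0.05 by edgeR.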

How the data were processed

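Per the labels and the study's methods, reads were checked with FastQC 0.11.9, trimmed with cutadapt 2.9, and aligned and counted by RSEM 1.3.1 with Bowtie2 2.4.1 on the mouse genome mm10. The authors deposited 1 table per library with the expected count of each gene, which divides a read that fits several genes between them and is not normalized, and with TPM and FPKM, which RSEM scaled by transcript length and depth. The deposited FPKM values were not used here. Strand use is not given in the sources used here.

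Expected counts were rounded to whole numbers. DMHCA libraries 1 and 3 were summed to 1 sample, and 3 control samples were set against 2 DMHCA samples by edgeR 4.0.16 under R 4.3.3 (TMM, filterByExpr with its minimum count at 10 and total at 15, quasi-likelihood F-test, Benjamini-Hochberg adjustment over 19427 genes). The SE is the log2 fold change over the square root of F. The p-values set the difference between groups against the spread between these few samples, estimated with information shared across genes. In the DMHCA group that spread rests on 2 samples. Alternatives used DESeq2 1.42.0, limma 3.58.1 on log2(TPM + 1) and log2(TPM + 0.1), no filter on low counts, and the omission of single libraries. The fit was tested on simulated counts with 200 changed genes. A minimum share of them called was required only at a spread set below that of these samples. The simulation therefore does not tell how many differences the test misses here. Positions are from GENCODE M21, in which all 32 members were found, and upstream sequences from RefSeq. Tables were handled with pandas 2.3.3 and numpy 2.4.6, and plots drawn with matplotlib 3.10.9 in Python 3.11.15.

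Every member is named. Full statistics are given for members with an unadjusted p under 0.05, or with groups that did not overlap and a change of at least 2-fold, and of each pathway list the genes with an unadjusted p under 0.05 are named. Members, lists and tests were chosen with earlier results of these data known.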

Additional observations from a re-analysis of the deposited data

How the results depend on the processing

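The count of genes with an adjusted p under 0.05 was 0 with edgeR and with limma, except for 16 without the filter on low counts, while DESeq2 gave 244 on the 5 samples and 846 on the 6 libraries. Of the members, DESeq2 called 1 on the 5 samples (Tnfsf8) and 3 on the 6 libraries (Tnfsf8, Tnfsf12 and Tnfsf13os, at log2 fold changes of -1.46, -0.95 and 2.41). Members lower at an unadjusted p under 0.05 numbered 2 in the main analysis (4.08% of all genes tested), 4 with edgeR on the 6 libraries (8.03% of genes), 6 and 8 with DESeq2 on the 5 samples and the 6 libraries (4.35% and 6.19%), 5 without the filter (5.10%) and 1 with limma at either pseudocount (1.72% and 2.12%). With each library left out in turn they numbered 0 to 5, with 5 without control library 2 (6.48% of genes), 1 without control library 3 (3.27%) and 0 without DMHCA library 2 (1.48%). Members higher at that level went from 2 (3.53% of genes) to between 0 and 2, with 0 without control library 1 (3.33%), 1 without control library 2 (2.91%) and 1 without DMHCA library 2 (2.78%). Members whose groups did not overlap went from 6 lower to 15 and from 2 higher to 4 without control library 2, where the share of all genes went from 12.2% to 21.5% and from 13.8% to 21.3%, and limma gave 4 higher at either pseudocount (20.3% of genes). The median log2 fold change of the members was -0.36 with limma at a pseudocount of 1, and -0.85 to -0.31 with each library left out, the smallest without control library 3. The cause was not tested.

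Over 30 members and 15 alternatives, 427 of 450 fold changes had the direction of the main analysis and 23 were reversed, in 8 members. On TPM with limma, at a pseudocount of 1 and 0.1, Tnfrsf10b was 0.14 and 0.15, Tnfrsf21 0.07 and 0.08, Tnfrsf23 0.21 and 0.23, and Tnfsf10 0.14 and 0.21. Tnfrsf11b was -0.21 with edgeR and -0.19 with DESeq2 on the 6 libraries. With each library left out, the values ran from -1.96 to 0.83 for Fasl, -0.60 to 0.15 for Tnfrsf10b, -0.46 to 0.01 for Tnfrsf21, -0.87 to 0.35 for Tnfsf9, -0.29 to 0.23 for Tnfrsf23, -0.56 to 0.14 for Tnfsf10, -0.86 to 0.46 for Tnfrsf11b and -0.26 to 0.75 for Tnfsf18. Without DMHCA library 2 a single DMHCA sample is left, which is assumed to vary like the controls.

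Same-numbered control and DMHCA libraries come from different mice. The deviations of same-numbered libraries from their group means had correlations of -0.05, 0.32 and 0.33 across genes. Pairs of different number had -0.36 to 0.32, the highest for control library 3 with DMHCA library 1. These values are tied to each other, since deviations are from a mean of 3 and DMHCA libraries 1 and 3 are near identical. They cannot decide whether the number pairs the libraries. With the replicate number as a block on the 6 libraries, edgeR gave 0 genes at an adjusted p under 0.05 and 3207 of 18674 at an unadjusted one, 4 members lower at an unadjusted p under 0.05 (8.08% of genes), and a log2 fold change of -0.24 for Tnfrsf11b. Genes with few counts, such as Tnfsf15, Fasl and Tnfsf14, are limited by counting error.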

Other observations

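The marker lists whose sums are not given above summed as follows, in normalized counts and in the order of control libraries 1, 2 and 3 and then DMHCA libraries 1, 2 and 3. Lymph node stroma and follicle markers summed to 3706, 127 and 40800 and to 406, 139.5 and 396. Of the 6, 5 were lower at an unadjusted p under 0.05 by edgeR, and 2 had groups that did not overlap. Dendritic cell markers summed to 2217, 1738 and 5332 and to 1525, 1151 and 1396. Neutrophil markers summed to 1065, 823 and 1360 and to 420.1, 2701 and 420.3, of which S100a8 made up 2199 in DMHCA library 2, while 4 of the 5 markers tested were lower in fitted value, S100a9 and Retnlg with groups that did not overlap (log2 fold changes of -1.47 and -2.44), and the median of the 5 was -1.42. Salivary gland markers stood at 305800, 566 and 3684 and at 1622, 422 and 1264, so that control library 1 alone held most of them. Milk protein genes summed to 735700, 715100 and 1999000 and to 759000, 353800 and 786300, of which all but 78670, 2097 and 1240000 and 13400, 1794 and 12990 came from Csn3, and skeletal muscle markers to 27300, 58240 and 30540 and to 39800, 9738 and 43540. Basal epithelial markers summed to 5237, 3271 and 11540 and to 4833, 3146 and 4912. Fibroblast markers stood at 86770, 42060 and 103800 and at 60350, 73450 and 61950, and endothelial markers at 7026, 6563 and 8389 and at 8081, 8059 and 8344, with sums that overlapped between the groups. Of the 6 endothelial markers 3 were lower in fitted value, with a median log2 fold change of -0.01. Only Cdh5, an endothelial cadherin gene, had groups that did not overlap. It was higher with DMHCA (log2 fold change 0.81, edgeR unadjusted p = 0.0160, adjusted p = 0.644). Of the 7 fibroblast markers 5 were lower, with a median of -0.54, or -0.05 without control library 3. Only Fap had groups that did not overlap, and it was lower (log2 fold change -0.92, or -0.39 without control library 3).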
